A study of Mus musculus with 124 samples.

Results

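The Ubr genes encode ubiquitin ligases that share the UBR box, a zinc-binding fold. Of this family, 5 genes were followed: Ubr1, Ubr2, Ubr3, Ubr4 and Ubr7. They were found by symbol in each of 3 RNA tables, 5 of 27016 symbols in metaphase II oocytes, 5 of 25239 in blastocysts and 5 of 24409 in the dorsal dentate gyrus (dDG), and 35122 distinct symbols stood in the tables together. The family was chosen by the values of Ubr3, which was lower after human chorionic gonadotropin (hCG) in both blastocysts and dDG. Values of all 5 genes in those comparisons are therefore a description, given with no p-value. The 5 genes were tested in oocytes and for relations within a group, and other genes of the pathway in all 3 materials.

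In the hCG group, female mice in natural estrus received 7.5 IU of the hormone into the peritoneum to trigger ovulation, with no earlier PMSG, and oocytes were collected 14 h later. For Ctrl oocytes, females in estrus were each housed with a vasectomised male, and oocytes were taken the next morning from those with a vaginal plug. This leaves mating, and how long before collection ovulation occurred, unequal between the oocyte groups. The mating behind the blastocysts and offspring is not described here. Uterine flushing at embryonic day 3.5 gave the blastocysts, and dDG came from offspring anaesthetised with tribromoethanol and perfused at 8 weeks of age. The labels give no strain and no transgene, and they do not state whether libraries of a group came from separate animals, so p-values measure the spread between these libraries. There were 6 hCG and 6 Ctrl oocyte libraries, 28 hCG and 28 Ctrl blastocyst libraries, and 6 hCG and 6 Ctrl dDG libraries. These 80 RNA samples were used, while 44 methylation samples of the 124 in the series were not analysed here.

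As background, the N-degron pathway destroys proteins that carry particular residues at their amino terminus. Enzymes such as methionine aminopeptidases, amidases and the arginyl-transferase Ate1 expose or add those residues, a UBR box binds them, and ubiquitin from the Ube2a or Ube2b conjugating enzyme marks the protein for the proteasome. In oocytes and early embryos ubiquitin-dependent turnover clears maternal proteins, and in neurons the pathway is known for removing misfolded and cleaved proteins. Ubr1 and Ubr2 are close relatives that bind basic and bulky hydrophobic amino termini, and Ubr2 is also needed in mouse spermatogenesis, where it is held by the germ-cell protein Tex19.1. Ubr4 is a very large recognition protein that works with the ligase Kcmf1 and binds calmodulin. Ubr3 has a UBR box and a RING domain but does not bind the usual N-degrons, and Ubr7 pairs a UBR box with a PHD finger and acts on histones in human cells.

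On the GRCm38 assembly, Ubr3 (NCBI gene 68795) spans chr2:69896932-70024010 and Ubr1 (22222) spans chr2:120860272-120970760, where the long noncoding gene AV039307 overlaps it. Ubr2 (224826) lies at chr17:46928291-47010886, Ubr4 (69116) at chr4:139380659-139489533 with a valine tRNA gene inside it, and Ubr7 (66622) at chr12:102757975-102777701. Whether counting used the strand is not given in the sources used here, so reads from Ubr1 and AV039307, or from Ubr4 and the tRNA gene, cannot be told apart. RefSeq promoter windows of GRCm38.p6, running 250 bases before to 50 bases after the start, were matched for 5 of 5 genes. Their start is that of the RefSeq promoter table and can differ from the end of the gene's span: the windows of Ubr3 and Ubr2 lie wholly within the spans given. Those of Ubr3 and Ubr1, the members with the most negative fold changes in hCG blastocysts, and of Ubr4, which went the other way from Ubr3 in dDG, are shown 5′ to 3′ on the strand of the gene, with each CpG dinucleotide in capitals.
Ubr3: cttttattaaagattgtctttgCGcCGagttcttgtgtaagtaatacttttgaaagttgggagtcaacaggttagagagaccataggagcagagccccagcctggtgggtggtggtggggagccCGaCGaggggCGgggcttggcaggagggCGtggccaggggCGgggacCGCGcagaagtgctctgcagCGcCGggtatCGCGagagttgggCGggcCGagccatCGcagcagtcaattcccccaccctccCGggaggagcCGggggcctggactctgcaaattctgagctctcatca
Ubr1: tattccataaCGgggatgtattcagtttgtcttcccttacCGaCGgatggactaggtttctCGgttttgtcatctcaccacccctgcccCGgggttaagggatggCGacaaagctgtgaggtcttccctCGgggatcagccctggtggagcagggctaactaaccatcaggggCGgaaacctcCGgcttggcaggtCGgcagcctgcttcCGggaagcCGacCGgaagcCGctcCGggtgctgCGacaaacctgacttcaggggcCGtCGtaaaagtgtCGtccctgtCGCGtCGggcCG
Ubr4: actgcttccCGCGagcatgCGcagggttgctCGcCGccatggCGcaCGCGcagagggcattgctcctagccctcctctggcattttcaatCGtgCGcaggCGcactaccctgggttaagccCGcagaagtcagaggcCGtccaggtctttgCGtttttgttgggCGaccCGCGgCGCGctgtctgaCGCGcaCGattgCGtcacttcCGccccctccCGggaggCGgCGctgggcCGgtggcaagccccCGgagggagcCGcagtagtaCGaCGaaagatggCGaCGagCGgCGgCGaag
The Ubr3 window is chr2:69896996-69897295 on the plus strand, the Ubr1 window chr2:120970666-120970965 on the minus strand, and the Ubr4 window chr4:139380409-139380708 on the plus strand. Ubr3 had 18 CpG in its window, and 70.3% of all 32851 promoter windows had fewer. Ubr1 had 23 and Ubr4 had 37, with fewer in 78.5% and 94.4% of windows, and the median window had 7. The Ubr2 window held 16 CpG and that of Ubr7 held 31, so all 5 lay above the median. Motifs were searched on both strands by their letters. The GC box GGGCGG, present in 35.7% of windows, stood 3 times in Ubr3 and Ubr7 and once in Ubr1 and Ubr4. The ETS core CCGGAAG, in 8.86% of windows, stood 2 times in Ubr1 and once in Ubr7, the NRF1 core TGCGCA, in 7.76%, stood 2 times in Ubr4, and the CCAAT box, in 37.4%, stood in Ubr7 only. The TATA box TATAAA (13.6%), the E-box CACGTG (7.15%) and the CRE TGACGTCA (1.79%) were found in 0 of the 5 windows. Every GC box, ETS core and NRF1 core holds a CpG in its own letters, so their counts are not independent of the CpG counts.

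Depth ran between 4174886 and 5346134 counts in hCG and between 2379861 and 6924189 in Ctrl oocyte libraries, where Ctrl 2 and Ctrl 4 were the shallowest. Blastocyst libraries held an estimated 3043231 to 10859379 reads and dDG libraries 14991584 to 17859654 expected counts. In 5 of 28 hCG and 0 of 28 Ctrl blastocyst libraries, both the X-inactivation transcript Xist and Y-linked transcripts reached 50 CPM (counts per 1000000 counts of the library), a combination that the labels do not account for. In hCG 6 of dDG, markers of choroid plexus, ependyma and meninges summed to 9666 CPM, against 39.1 to 133.9 CPM in the other hCG and 35.6 to 151.9 CPM in the Ctrl libraries. The labelled materials carried their markers: the 7 oocyte markers summed to 7607 to 9320 CPM in hCG and 7749 to 10670 CPM in Ctrl oocytes, the 9 blastocyst markers to 1746 to 6586 CPM in hCG and 1164 to 9894 CPM in Ctrl blastocysts, and the 7 dentate granule markers to 1359 to 1728 CPM in hCG and 992.9 to 1575 CPM in Ctrl dDG. In bulk samples fewer cells of a type and less RNA per cell cannot be told apart.

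By their medians, Ubr3, Ubr1 and Ubr4 were lowest in oocytes, higher in blastocysts and highest in dDG. In hCG libraries Ubr3 lay between 7.03 and 28.8 CPM in oocytes, between 27.8 and 59.9 CPM in blastocysts and between 178 and 199.7 CPM in dDG. In Ctrl libraries it lay between 4.33 and 23.2 CPM in oocytes, between 29.3 and 145 CPM in blastocysts and between 232 and 261 CPM in dDG. Ubr4 followed the same order, with 7.45 to 32.7, 44.6 to 100.7 and 225 to 274 CPM in hCG, and 8.06 to 23.2, 39.8 to 196 and 208 to 236 CPM in Ctrl libraries of oocytes, blastocysts and dDG. In both genes the Ctrl ranges of the 3 materials did not overlap, while in hCG the highest oocyte value of Ubr3 passed its lowest blastocyst value. The tables were made separately, so these levels are set side by side and were not tested.

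For Ubr1 the oocyte and blastocyst ranges overlapped, with 4.19 to 18.5 and 17.3 to 54.1 CPM in hCG and 7.31 to 25.5 and 20.55 to 67.9 CPM in Ctrl libraries, and dDG stood above both with 67.7 to 80.5 CPM in hCG and 71.5 to 81.4 CPM in Ctrl. By their medians Ubr2 and Ubr7 were lowest in blastocysts. Ubr2 had 15.9 to 28.9, 5.11 to 22.1 and 87.6 to 112 CPM in hCG and 18.7 to 39.6, 7.64 to 26.04 and 80.7 to 107 CPM in Ctrl oocytes, blastocysts and dDG. Its oocyte and blastocyst ranges overlapped in both groups. Ubr7 had 33.9 to 49.6, 12.98 to 55.1 and 58.0 to 65.0 CPM in hCG and 17.6 to 50.8, 0.388 to 54.2 and 59.7 to 71.1 CPM in Ctrl libraries of the same materials, so its oocyte levels lay within the span of the blastocysts. The lowest Ubr7 value, in blastocyst Ctrl 26, rested on an estimated 2 reads.

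**Figure D1:**
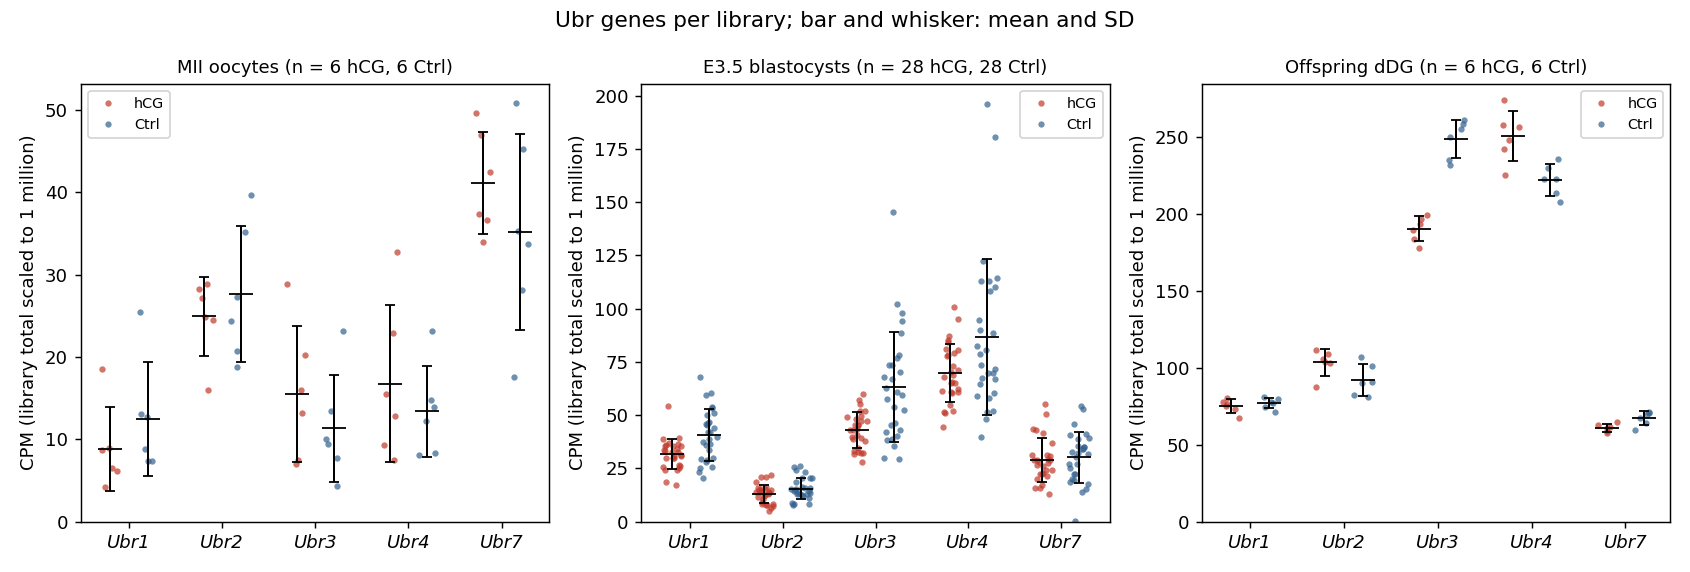
CPM of the 5 Ubr genes in each library (points), hCG in red left of Ctrl in blue, with mean and SD, in oocytes (6 and 6 libraries), blastocysts (28 and 28) and dDG (6 and 6). In dDG the Ubr3 points of hCG lie at 178 to 199.7 CPM, below all Ctrl points at 232 to 261 CPM, while in oocytes the groups overlap for every gene. The dDG contrast chose Ubr3, so nothing is read from its separation there.

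In hCG oocytes 0 of 5 Ubr genes were called higher and 0 of 5 lower by edgeR's quasi-likelihood test with Benjamini-Hochberg adjustment at 0.05, where 1.33% of all 9565 genes tested were called higher and 2.67% lower. At an unadjusted p under 0.05 the count was 0, and DESeq2 called 0 as well. Counts behind a value ran between 19 and 221 per library. In simulated oocyte data with 1 fixed dispersion, 63% of genes changed by a log2 fold of 1 were called, and 100% of those changed by 2. Differences of a log2 fold of 1 or less may thus be missed at this depth. The dispersion was not fitted to these genes. Their coefficients of variation in oocytes ran from 15.1% (Ubr7 in hCG) to 57.4% (Ubr3 in Ctrl), so 63% need not hold for each of them.

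Among the oocyte values, those of Ubr3 ran from a lowest of 7.03 through a median of 14.6 to a highest of 28.8 CPM in hCG, and were 4.33, 9.75 and 23.2 CPM in Ctrl. The groups overlapped, with 5 of 6 hCG libraries inside the Ctrl range. The mean was 15.45 ± 8.26 CPM in hCG and 11.3 ± 6.51 CPM in Ctrl (SD, n = 6 each), and the log2 fold change was 0.46 ± 0.37 (SE, edgeR adjusted p = 0.552). Its sign was opposite to that in blastocysts and dDG, and this difference between materials was not tested.

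Ubr1, the classical N-degron reader, averaged 8.83 ± 5.06 CPM in hCG and 12.45 ± 6.88 CPM in Ctrl oocytes, with a log2 fold change of -0.48 ± 0.36 (edgeR adjusted p = 0.513). In each group a single library stood high, hCG 5 at 18.5 CPM and Ctrl 4 at 25.5 CPM, and 3 of 6 hCG libraries lay below every Ctrl library. Its relative Ubr2 averaged 24.9 ± 4.76 CPM in hCG and 27.6 ± 8.22 CPM in Ctrl (log2 fold change -0.14 ± 0.21, edgeR adjusted p = 0.765). Ubr4 averaged 16.8 ± 9.50 CPM in hCG and 13.4 ± 5.52 CPM in Ctrl (0.33 ± 0.33, edgeR adjusted p = 0.65). Ubr7, the histone ligase, averaged 41.2 ± 6.21 CPM in hCG and 35.1 ± 11.9 CPM in Ctrl (0.23 ± 0.22, edgeR adjusted p = 0.631). The 6 hCG libraries of Ubr7 all lay inside the Ctrl range. Without the shallow Ctrl 2 and Ctrl 4, the log2 fold changes were 0.81 ± 0.39 for Ubr3, 0.60 ± 0.36 for Ubr4, 0.37 ± 0.24 for Ubr7, -0.06 ± 0.36 for Ubr1 and -0.006 ± 0.225 for Ubr2, and 0 of 5 were called (lowest edgeR adjusted p = 0.237, for Ubr3). Oocyte hCG 5 was the highest hCG library for Ubr1, Ubr3 and Ubr4, and Ctrl 4 the highest Ctrl library for these genes and for Ubr2. Of the 7 oocyte markers, 1 was called lower in hCG and 0 higher, beside 2.67% and 1.33% of all genes. It was Zp3, with 66.4 ± 32.9 CPM in hCG and 149.4 ± 60.7 CPM in Ctrl (-1.19 ± 0.28, edgeR adjusted p = 0.0199), named after its values were seen. Cumulus and granulosa markers summed to 16.5 to 24.9 CPM in hCG and 15.45 to 24.8 CPM in Ctrl oocytes, and Fshr and Foxl2 were at 0. Nearly all of that sum was 1 gene, Cyp19a1, with 19.6 ± 2.75 CPM in hCG and 17.6 ± 3.34 CPM in Ctrl. It was the only 1 of 8 listed markers to pass the filter, and Amh had no row.

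In hCG blastocysts, Ubr3 was at 68.0% of the Ctrl mean and Ubr1 at 77.6%. Ubr3 had a lowest, median and highest value of 27.8, 43.3 and 59.9 CPM in hCG, against 29.3, 60.1 and 145 CPM in Ctrl blastocysts. All 28 hCG libraries lay below the Ctrl median, although 27 of 28 were inside the Ctrl range, and 14 of 28 Ctrl libraries were above every hCG library. The mean was 43.0 ± 8.34 CPM in hCG and 63.2 ± 26.01 CPM in Ctrl (SD, n = 28 each), and the log2 fold change was -0.50 ± 0.12 (SE). Counted with the call rule of the whole table, 2 of 5 members, Ubr1 and Ubr3, were lower and 0 higher, beside 7.57% of 10850 genes called lower and 8.68% called higher. Because Ubr3 was selected on this contrast, nothing is read from that count.

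The groups also differed in how widely Ubr3 was spread. Its coefficient of variation was 19.4% in hCG and 41.1% in Ctrl blastocysts, and that of Ubr4 was 19.7% in hCG and 42.2% in Ctrl. For Ubr1 it was 22.4% in hCG and 29.7% in Ctrl, for Ubr2 34.0% and 33.1%, and for Ubr7 35.5% and 39.8%. Over all genes tested, Ctrl libraries also agreed less with each other. The median Spearman correlation between libraries was 0.9341 in hCG and 0.9053 in Ctrl. The highest Ubr3 values were in Ctrl 28 (145 CPM), Ctrl 7 (102 CPM), Ctrl 13 (97.8 CPM), Ctrl 12 (94.3 CPM) and Ctrl 5 (88.7 CPM), while the highest hCG library, hCG 17, had 59.9 CPM. The lowest values of the groups, 27.8 CPM in hCG 6 and 29.3 CPM in Ctrl 10, lay close together, and the highest did not.

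The number of genes detected also differed. Between 12712 and 14079 genes (median 13591) had reads in hCG and between 10382 and 13836 (median 13144) in Ctrl blastocysts. Within the groups the Pearson correlation of Ubr3 with the number of genes detected was -0.35 over 28 hCG and -0.31 over 28 Ctrl libraries, a description of measures that come from the same libraries. With genes detected as a covariate the Ubr3 log2 fold change was -0.37 ± 0.13, and the call was lost. Since this contrast chose the family, nothing is read from a call on a member being kept or lost. With the deposited values left unscaled, the median of all genes lay 0.49 higher in hCG on the log2 scale. Against that shift Ubr3 was at -0.57 and Ubr1 at -0.43, but as deposited they were at -0.07 ± 0.14 and 0.06 ± 0.18, so that neither was called and Ubr1, Ubr2 and Ubr4 changed sign. The part of detection or scaling in the result was not tested. In the 5 hCG libraries that held Xist and Y-linked transcripts together, Ubr3 was between 32.3 and 45.5 CPM, and without them its log2 fold change was -0.47 ± 0.13 and that of Ubr1 -0.38 ± 0.11. Uterine, stromal and blood markers summed to 18.55 to 242.3 CPM in hCG and 11.97 to 316.7 CPM in Ctrl blastocysts, with Hbb-bs and Col3a1 at 0. Of the 9 blastocyst markers, 1 was called higher and 1 lower, beside 8.68% and 7.57% of all genes. Both are named here after their values were seen. Nanog, of the inner cell mass, had 242.5 ± 121.9 CPM in hCG and 160.0 ± 86.0 CPM in Ctrl (0.58 ± 0.19, limma adjusted p = 0.0313), and Eomes, of the trophectoderm, had 43.7 ± 21.7 CPM in hCG and 72.3 ± 45.4 CPM in Ctrl (-0.685 ± 0.17, limma adjusted p = 0.00402). Not called were Cdx2 (0.08 ± 0.15), Krt8 (-0.22 ± 0.18), Krt18 (-0.13 ± 0.21), Pou5f1 (0.57 ± 0.21), Sox2 (0.002 ± 0.227), Gata4 (-0.55 ± 0.34) and Gata6 (-0.05 ± 0.12). The part of cell lineages in the Ubr values was not tested.

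Ubr1 had a lowest, median and highest value of 17.3, 32.0 and 54.1 CPM in hCG and 20.55, 40.9 and 67.9 CPM in Ctrl blastocysts. The ranges overlapped, and 27 of 28 hCG libraries were below the Ctrl median (log2 fold change -0.36 ± 0.10). Not called were Ubr2, at 5.11, 13.7 and 22.1 CPM in hCG and 7.64, 14.6 and 26.04 CPM in Ctrl (-0.28 ± 0.13), and Ubr4, at 44.6, 68.3 and 100.7 CPM in hCG and 39.8, 76.2 and 196 CPM in Ctrl (-0.26 ± 0.11). EdgeR on estimated reads, an alternative to limma, did call Ubr4 lower, and nothing is read from that either. For each of them 18 of 28 hCG libraries were below the Ctrl median, and 8 Ctrl libraries exceeded every hCG library for Ubr4. Ubr7, with 12.98, 27.8 and 55.1 CPM in hCG and 0.388, 31.8 and 54.2 CPM in Ctrl, had a log2 fold change of 0.03 ± 0.19, although 22 of 28 hCG libraries were below the Ctrl median. In that gene the fold change and the median went different ways, and the hCG mean was 95.9% of the Ctrl mean. The fold change is a difference of log values, on which Ctrl 26 at 0.388 CPM lies far below the rest. A fit without that library was not made. Summed over the 5 genes, hCG blastocysts had 131 to 235.5 CPM (median 189) and Ctrl blastocysts 167 to 386 CPM (median 217).

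Across blastocysts of 1 group, Ubr3 did not track the other members past the threshold. Over 28 hCG libraries Pearson's r with Ubr3 was 0.13 for Ubr1, -0.02 for Ubr2, 0.21 for Ubr4 and 0.04 for Ubr7, and Spearman's rho was 0.04, -0.09, 0.13 and 0.12 in the same order. The adjusted p of r was 0.683, 0.917, 0.646 and 0.917 (permutation test with 100000 resamples, two-sided, Benjamini-Hochberg over 8 relations). In Ctrl libraries r was 0.41 for Ubr1, 0.35 for Ubr2, 0.19 for Ubr4 and -0.16 for Ubr7, with rho of 0.36, 0.39, 0.18 and -0.10 (adjusted permutation p of r = 0.223, 0.261, 0.646 and 0.682). For the pair of Ubr3 and Ubr1 in Ctrl the unadjusted permutation p was 0.0279, and r was 0.20 once the pair of libraries farthest from the Ubr3 median was left out. Without such a pair the r values of the other relations were -0.12, -0.01, -0.05 and 0.10 in hCG for Ubr1, Ubr2, Ubr4 and Ubr7, and 0.29, 0.21 and -0.25 in Ctrl for Ubr2, Ubr4 and Ubr7.

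The nearest genes to each member were picked from 5744 ranked on these same libraries. The top of such a ranking is high by selection, so nothing is read from its r exceeding that of other members. Ranked by the smaller of the hCG and Ctrl Pearson r over 28 libraries each, among 5744 genes with a mean of at least 20 CPM, the nearest to Ubr3 was Mcl1, an inhibitor of apoptosis (r = 0.59 in hCG, 0.64 in Ctrl). It was followed by Atp13a3, a polyamine transporter (0.55 in hCG, 0.72 in Ctrl), and Sgpp1, a sphingosine-1-phosphate phosphatase (0.54 in hCG, 0.82 in Ctrl). Hnrnpu, an RNA-binding protein (0.56 in hCG, 0.53 in Ctrl), and Smarca5, a chromatin remodeller (0.58 in hCG, 0.53 in Ctrl), completed the nearest 5. Ubr4 stood at rank 636 for Ubr3, Ubr1 at 1009 and Ubr7 at 3092. Nearest to Ubr4 were Hdlbp (0.82 in hCG, 0.79 in Ctrl), Sptan1 (0.79 in hCG, 0.77 in Ctrl) and Ahnak (0.67 in hCG, 0.75 in Ctrl). For Ubr1 the nearest was Ube3c, another ubiquitin ligase (0.66 in hCG, 0.58 in Ctrl), then Cnot1 and Tomm70a. Nearest to Ubr2 were Zfand5 (0.57 in hCG, 0.50 in Ctrl), Pabpc4 (0.43 in hCG, 0.39 in Ctrl) and Ly6a (0.36 in hCG, 0.36 in Ctrl). Eftud2, Rpa2 and Prpf4 were nearest to Ubr7. These points share library and depth, and the values are a description.

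**Figure D2:**
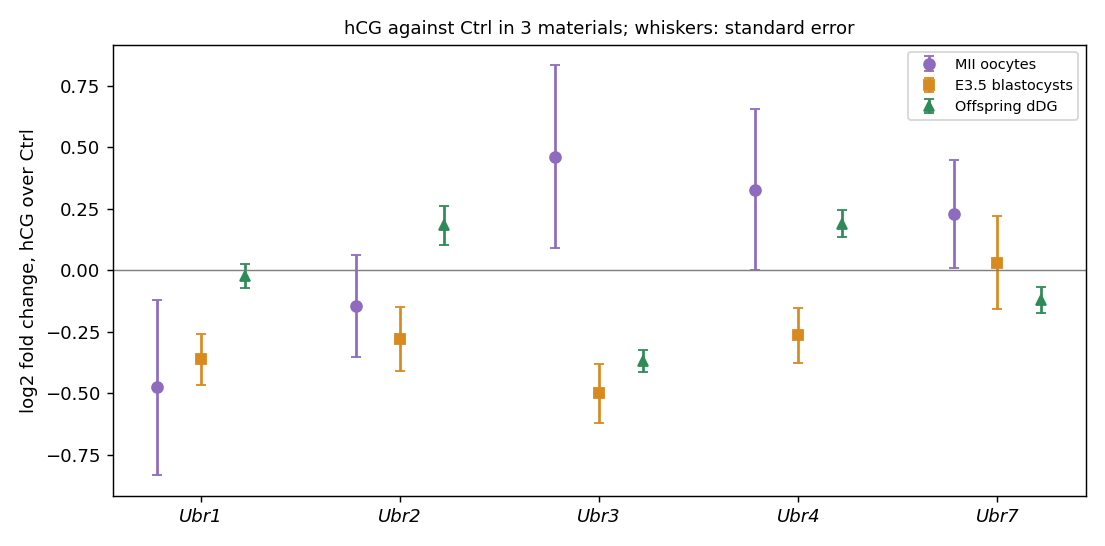
Log2 fold change of hCG over Ctrl (y axis) with its standard error for the 5 Ubr genes in oocytes, blastocysts and dDG. Ubr3 lies at 0.46, -0.50 and -0.37 in these materials, and Ubr4 at 0.33, -0.26 and 0.19.

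In dDG of offspring from hCG females, Ubr3 was at 76.6% of the Ctrl mean with no overlap between groups, and Ubr4 was at 113%. Ubr3 had 184, 197, 189.5, 194, 199.7 and 178 CPM in the 6 hCG libraries, and 259, 249.9, 261, 235, 232 and 255 CPM in the 6 Ctrl libraries. Every hCG library lay below every Ctrl library, and the groups were about as tight as each other, with coefficients of variation of 4.29% in hCG and 4.99% in Ctrl. How many of all genes separate in this way was not counted. The contrast chose Ubr3, so nothing is read from the separation. The mean was 190.4 ± 8.17 CPM in hCG and 248.6 ± 12.4 CPM in Ctrl (SD, n = 6 each), and the log2 fold change was -0.37 ± 0.05 (SE). Counted with the call rule of the table, 1 of 5 members was lower (Ubr3) and 1 higher (Ubr4), beside 3.19% of 13874 genes called lower and 4.67% called higher, and nothing is read from the count since the contrast chose the family. In hCG 6, where choroid and meningeal markers were high, Ubr3 had the lowest value of all, and without that library its log2 fold change was -0.35.

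Ubr4 had a lowest, median and highest value of 225, 252.5 and 274 CPM in hCG, against 208, 223 and 236 CPM in Ctrl dDG. Of the hCG libraries 5 of 6 lay above all Ctrl libraries, and the sixth, hCG 2, lay inside their range (log2 fold change 0.19 ± 0.05). The call on Ubr4 was lost in 12 of 16 alternative fits, among them those without any 1 of hCG 1, 3, 4, 5 or 6 or of Ctrl 1, 2, 3, 4 or 6, with values between 0.16 and 0.22 when single libraries were left out. Since the contrast chose the family, nothing is read from that call being kept or lost. Because Ubr3 and Ubr4 differed in opposite directions, the ratio of their CPM lay between 0.65 and 0.875 in hCG (median 0.764) and between 0.982 and 1.25 in Ctrl dDG (median 1.14), and all 6 hCG libraries were below all Ctrl libraries. That separation follows from the values of both genes in the contrast that chose the family, so nothing is read from it. In blastocysts the same ratio overlapped, at 0.316 to 1.06 in hCG (median 0.613) and 0.294 to 2.37 in Ctrl (median 0.673). In oocytes it was 0.586 to 1.41 in hCG (median 0.912) and 0.353 to 1.12 in Ctrl (median 0.928). A ratio of CPM carries the length of both genes, so its size is not a ratio of molecules.

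The other members differed less in dDG. Ubr7 had 58.0, 61.3 and 65.0 CPM in hCG and 59.7, 68.7 and 71.1 CPM in Ctrl as lowest, median and highest values (-0.12 ± 0.05), and 6 of 6 hCG libraries were below the Ctrl median. Ubr2 had 87.6, 104.7 and 111.9 CPM in hCG and 80.7, 90.55 and 107 CPM in Ctrl (0.18 ± 0.08), with 4 of 6 hCG libraries inside the Ctrl range. Ubr1 had 67.7, 75.7 and 80.5 CPM in hCG and 71.5, 77.8 and 81.4 CPM in Ctrl, with a log2 fold change of -0.025 ± 0.049 that was smaller than its error. The sum of the 5 genes was 681 ± 22.8 CPM in hCG and 707 ± 18.7 CPM in Ctrl, and the share of Ubr3 in it was 25.5% to 30.6% in hCG and 32.3% to 37.8% in Ctrl dDG. Oligodendrocyte markers summed to 1068 to 2434 CPM in hCG and 1118 to 2698 CPM in Ctrl, and those of hippocampal CA neurons to 230 to 426.9 CPM in hCG and 275.5 to 486.9 CPM in Ctrl. Of the 7 dentate granule markers 2 were called higher, beside the 4.67% of all genes, and 0 lower. They were Prox1, with 148.6 ± 20.03 CPM in hCG and 117 ± 14.2 CPM in Ctrl (0.36 ± 0.09, edgeR adjusted p = 0.0319), and Plk5, with 86.0 ± 15.3 CPM in hCG and 61.6 ± 10.7 CPM in Ctrl (0.495 ± 0.13, edgeR adjusted p = 0.0343), named after their values were seen. Of the 5 oligodendrocyte markers, Olig1 was called higher (0.31 ± 0.09, edgeR adjusted p = 0.0362). The part of such cells in the values of Ubr3, Ubr4 and the other members was not tested.

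Both RefSeq transcripts of Ubr3 were lower in hCG dDG. NM_001303033 had 109 ± 15.9 CPM in hCG and 134 ± 12.2 CPM in Ctrl (SD, n = 6 each), 81.7% of the Ctrl mean, and 5 of 6 hCG libraries were below all Ctrl libraries. NM_177783 had a mean of 81.1 CPM in hCG (66.7 to 95.3) and of 115 CPM in Ctrl (78.3 to 129), 70.6% of the Ctrl mean, and 3 of 6 hCG libraries were below all Ctrl libraries. The share of NM_001303033 in the gene was 57.3% ± 6.63 in hCG and 54.0% ± 6.54 in Ctrl, a difference smaller than either SD. For Ubr2, NM_146078 had 33.3 ± 6.24 CPM in hCG and 25.5 ± 5.24 CPM in Ctrl, and NM_001177374 had 70.2 ± 11.8 CPM in hCG and 66.7 ± 11.5 CPM in Ctrl. The share of NM_146078 in Ubr2 was 32.5% ± 7.24 in hCG and 27.9% ± 6.34 in Ctrl. Ubr1, Ubr4 and Ubr7 had 1 transcript each in the table. Transcripts of a gene share reads that the authors' estimation divided, so these values are less certain than the gene's sum.

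**Figure D3:**
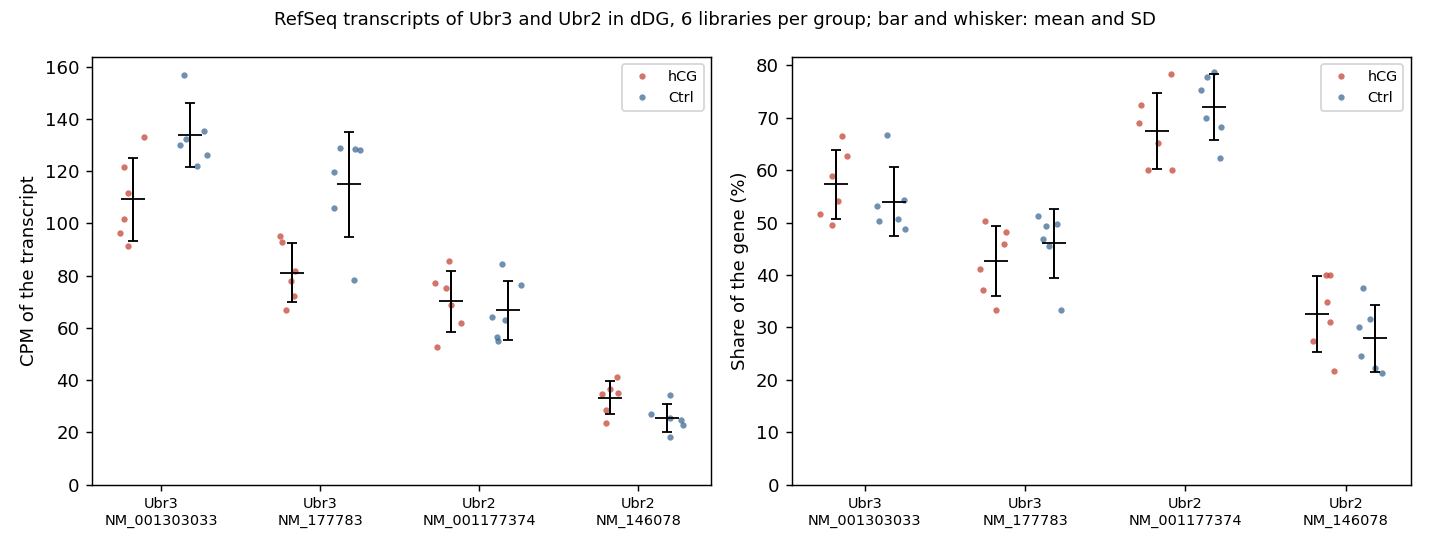
CPM (left) and share of the gene's CPM in percent (right) of the RefSeq transcripts of Ubr3 and Ubr2 in 6 hCG libraries (red) and 6 Ctrl libraries (blue) of dDG, with mean and SD. NM_177783 averages 81.1 CPM in hCG and 115 CPM in Ctrl, and the shares of all 4 transcripts overlap between groups.

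The rest of the pathway was followed in 4 lists that hold none of the 5 genes, each read beside the shares of all genes given above. In oocytes, where the median log2 fold change of all genes was 0.01, 0 of 5 tested enzymes that make N-degrons were called (7 listed, median -0.02). Their most abundant members were the methionine aminopeptidase Metap2, with 445 ± 67.5 CPM in hCG and 412 ± 29.3 CPM in Ctrl (edgeR adjusted p = 0.703), and separase Espl1, with 137 ± 18.7 CPM in hCG and 106 ± 38.2 CPM in Ctrl (edgeR adjusted p = 0.281). Of 11 tested ubiquitin and partner genes (12 listed, median -0.12), 2 were higher and 2 lower. Kcmf1, the ligase that works with Ubr4, rose to 219.9 ± 58.3 CPM in hCG, against 120.3 ± 48.4 CPM in Ctrl oocytes (log2 fold change 0.88 ± 0.22, edgeR adjusted p = 0.028). Uba1, the ubiquitin-activating enzyme, had 157 ± 41.7 CPM in hCG and 87.8 ± 29.3 CPM in Ctrl (0.84 ± 0.20, edgeR adjusted p = 0.0195). Ube2a, the conjugating enzyme of Ubr1 and Ubr2, fell to 9.47 ± 3.87 CPM in hCG, against 21.4 ± 7.77 CPM in Ctrl (-1.21 ± 0.30, edgeR adjusted p = 0.0274), and Calm2, a calmodulin gene, had 237 ± 27.7 CPM in hCG and 369 ± 39.6 CPM in Ctrl (-0.645 ± 0.12, edgeR adjusted p = 0.003).

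Among substrates known from other studies, 0 of 5 tested in oocytes were called (12 listed, median 0.05). The most abundant were the stress kinase Eif2ak1 at 226.5 ± 22.1 CPM in hCG and 218 ± 26.3 CPM in Ctrl (edgeR adjusted p = 0.865) and the RNA-binding protein Tardbp at 181 ± 20.2 CPM in hCG and 152 ± 37.3 CPM in Ctrl (edgeR adjusted p = 0.373). Of 11 tested genes of other degron ligases (14 listed, median 0.24), 1 rose. It was Ranbp9, a scaffold of the CTLH complex, with 403 ± 59.0 CPM in hCG and 233 ± 98.9 CPM in Ctrl (0.80 ± 0.21, edgeR adjusted p = 0.0343). Of the 12 fits that each left out 1 library, those without hCG 4 or Ctrl 5 lost the call on Uba1. The call on Kcmf1 was lost without hCG 4 or 5 or Ctrl 3, 5 or 6, and that on Ube2a without hCG 1, 3 or 4 or Ctrl 3, 5 or 6. Ranbp9 was called in 4 of the 12, those without hCG 3 or 6 or Ctrl 1 or 4, and Calm2 in all 12. Over the 12 fits their log2 fold changes ran from 0.71 to 0.965 for Uba1, 0.75 to 1.00 for Kcmf1, -1.42 to -1.06 for Ube2a and 0.66 to 0.94 for Ranbp9.

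In blastocysts the median log2 fold change of all genes was 0.02. Of 7 tested enzymes that make N-degrons (median 0.03), 1 was lower: Ntan1, the amidase that acts on amino-terminal asparagine, had 59.1 ± 15.1 CPM in hCG and 71.5 ± 15.3 CPM in Ctrl (-0.32 ± 0.10, limma adjusted p = 0.0255). Of 12 ubiquitin and partner genes (median -0.07), 2 were higher and 0 lower. The autophagy receptor Sqstm1 had 251 ± 137 CPM in hCG and 158 ± 125 CPM in Ctrl (0.80 ± 0.23, limma adjusted p = 0.0148), and the Ubr2 partner Tex19.1, whose near copy Tex19.2 can share its reads, had 152 ± 105 CPM in hCG and 88.3 ± 54.3 CPM in Ctrl (0.76 ± 0.235, limma adjusted p = 0.0215). Of 9 tested substrates (12 listed, median 0.23), Bid, a promoter of apoptosis, was higher, with 21.4 ± 8.29 CPM in hCG and 14.9 ± 7.86 CPM in Ctrl (0.60 ± 0.19, limma adjusted p = 0.0275). Brca1, a DNA repair factor, fell to 24.4 ± 9.49 CPM in hCG, against 38.4 ± 12.6 CPM in Ctrl (-0.71 ± 0.13, limma adjusted p = 0.000236).

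Of 14 other degron ligase genes in blastocysts (median -0.08), 2 were lower and 0 higher. Fbxo11, an F-box protein that also carries a UBR box, had 34.8 ± 10.98 CPM in hCG and 48.4 ± 14.3 CPM in Ctrl (-0.49 ± 0.12, limma adjusted p = 0.00328), and Wdr26, a CTLH subunit, had 70.3 ± 19.2 CPM in hCG and 94.0 ± 37.9 CPM in Ctrl (-0.39 ± 0.13, limma adjusted p = 0.0286). With genes detected as a covariate 5 of these 7 calls were lost, those on Brca1 and Fbxo11 being kept. With unscaled values 4 of the 7 were lost, and Ntan1 (0.11) and Wdr26 (0.04) changed sign. EdgeR on estimated reads lost the calls on Bid (0.51 ± 0.19) and Sqstm1 (0.64 ± 0.23), the fit without the 5 hCG libraries with Xist and Y-linked transcripts lost those on Bid (0.57) and Ntan1 (-0.24), and the fit without a low-value filter lost that on Wdr26.

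In dDG, where the median over all genes was 0.005, 1 of 7 enzymes that make N-degrons was called (median -0.08), Metap2, with 113 ± 4.79 CPM in hCG and 101 ± 4.88 CPM in Ctrl (0.17 ± 0.05, edgeR adjusted p = 0.0439). Its call was lost in 11 of the 12 fits that left out 1 library, all but the one without Ctrl 5. Of 10 tested substrates (12 listed, median 0.03), 1 rose: Tardbp, an RNA-binding protein known for aggregating in neurodegeneration, had 256.9 ± 13.1 CPM in hCG and 208 ± 15.4 CPM in Ctrl dDG (0.32 ± 0.06, edgeR adjusted p = 0.00374). Of 11 tested ubiquitin and partner genes (12 listed, median 0.006) 0 were called, and the most abundant were the calmodulin genes Calm3, with 2521 ± 213 CPM in hCG and 2726 ± 123.5 CPM in Ctrl (edgeR adjusted p = 0.307), and Calm2, with 1796 ± 160.4 CPM in hCG and 1883 ± 54.9 CPM in Ctrl (edgeR adjusted p = 0.615). Of 14 other degron ligase genes (median -0.03) 0 were called, among them Zyg11b (265.5 ± 18.8 CPM in hCG, 293 ± 14.3 CPM in Ctrl, edgeR adjusted p = 0.19) and Rmnd5a (244.6 ± 17.7 CPM in hCG, 233 ± 21.98 CPM in Ctrl, edgeR adjusted p = 0.478).

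**Figure D4:**
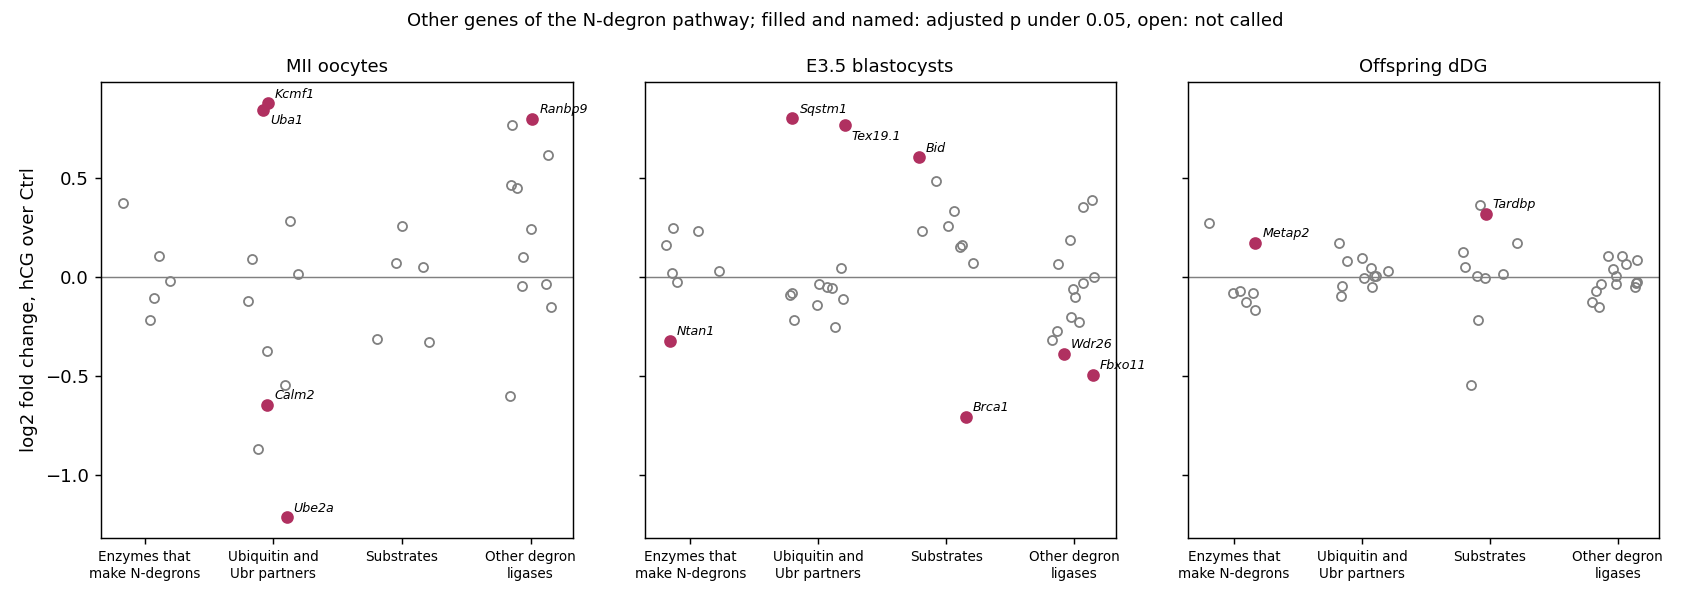
Log2 fold change of hCG over Ctrl (y axis) of the other genes of the pathway in 4 lists (x axis) for oocytes, blastocysts and dDG. Filled, named points passed an adjusted p of 0.05, with Kcmf1 at 0.88 and Ube2a at -1.21 in oocytes, Sqstm1 at 0.80 and Brca1 at -0.71 in blastocysts, and Tardbp at 0.32 in dDG.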

How the data were processed

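RNA was measured by Smart-seq2 in oocytes and blastocysts and by mRNA sequencing in dDG, per the labels, although the library name of replicate 6 in both oocyte groups ends in smart_seq3; these were matched by title. The deposited oocyte table holds read counts per gene. The deposited dDG table holds expected counts estimated per RefSeq transcript, which were summed by gene and rounded. The deposited blastocyst table holds a signal: each library's counts had been scaled, on a basis not stated in the labels. In each library 89.02% to 93.45% of the values, within a tolerance of 0.005, were multiples of a step (39.29 to 244.49), and dividing by it gave estimated reads. Per the submitters' processing notes, the tools listed include STAR 2.7.6a, Bowtie2, TopHat, Trim Galore 0.6.4 and HTSeq 0.12.4, with the builds mm10 and GRCm38. Which tool made which table is not given in the sources used here. In oocytes and dDG, 23 and 25 gene names had turned into dates and were left unread.

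For oocytes and dDG the counts entered edgeR 4.0.16 in R 4.3.3 (robust quasi-likelihood, TMM, default filter of 10 counts and 15 in total), and blastocysts with limma 3.58.1 on log2 of TMM-normalised CPM plus 1, whose fold changes understate those of low genes. All 5 members passed the filter in every table. P-values were two-sided and adjusted over all genes of a table (Benjamini-Hochberg, threshold 0.05). DESeq2 1.42.0, other scalings, filters, covariates and left-out libraries were alternatives. The tests were tried on simulated data with 1 fixed dispersion. Changes of a log2 fold of 1 were called in 63% of changed oocyte genes, 100% in blastocysts and 57% in dDG. No pair of libraries agreed within sampling noise. Genes were not compared by length, since no length table was used here, so CPM per kilobase of coding sequence, which had been planned, was not made. CPM values are shares of the column total, given as means ± SD, and log2 fold changes carry standard errors.

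Named genes were the 5 members, the called genes of each pathway list (up to 4 by smallest p, else the 2 most abundant), and the nearest genes by correlation (5 for Ubr3, 3 for the others, with at least 20 CPM). Members and lists were chosen with earlier results of these data known, and 1 gene is not reported here.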

Additional observations from a re-analysis of the deposited data

Results flagged for a closer look

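Of 20 groups of 6 libraries checked, 4 held a library whose gap to its neighbour, divided by the range of the group, exceeded 0.625, Dixon's critical value, which chance alone passes in about 1 of 20 groups. In oocytes, Ubr1 stood high in hCG 5 at 18.5 CPM (gap 0.671 of the range) and in Ctrl 4 at 25.5 CPM (0.686), and Ubr2 stood low in hCG 3 at 15.9 CPM (0.655). In dDG, Ubr2 stood low in hCG 2 at 87.6 CPM (0.633). Leaving out single libraries moved the oocyte log2 fold change of Ubr1 between -0.80 and -0.16, that of oocyte Ubr2 between -0.24 and -0.03, and that of dDG Ubr2 between 0.15 and 0.23.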

How the results depend on the processing

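Oocyte members kept their sign and stayed uncalled in all 17 alternatives. Ubr3 in dDG lay between -0.395 and -0.35 without single libraries, a description of the contrast that chose it. Unscaled blastocyst values gave 3655 genes higher and 15 lower, with Ubr1 at 0.064, Ubr4 at 0.17, Ntan1 at 0.11 and Wdr26 at 0.042; by construction this keeps the authors' factor. EdgeR on estimated reads called 576 genes higher there, genes detected as a covariate 337 higher and 437 lower, and the fit without the 5 hCG libraries holding Xist and Y-linked transcripts 480 lower (fewer samples). Without those libraries r of Ubr3 and Ubr2 in hCG was 0.03, against -0.02. DESeq2 called 265 genes higher and 430 lower in oocytes, and 712 lower in dDG, and the fit without Ctrl 2 and 4 called 271 higher in oocytes. Leaving out single libraries gave 70 to 292 genes higher and 167 to 365 lower in oocytes, and 395 to 684 higher and 254 to 547 lower in dDG. No pairing of libraries by replicate number was seen, although weak correlations cannot exclude it. Same-numbered libraries correlated at -0.19 to 0.21 in oocytes, -0.21 to 0.17 in blastocysts and -0.16 to 0.14 in dDG. Only 1 of 6 oocyte pairs and 0 of the others correlated best with their own number. With the replicate number as a block 388 genes were higher and 195 lower in dDG. The call on Metap2 there was lost, and so was that on Ubr4, from which nothing is read. Other causes were not tested. Oocyte members rest on 19 to 221 reads per library.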
